A study of Mus musculus with 16 samples.

Results

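Productive T cell receptor β (TCRβ) rearrangements whose junctional complementarity-determining region, the third (CDR3), held a cysteine after its residue 4 were collected from the T cells of 16 mouse tumors. A CDR3 is counted here from its conserved first cysteine, which is residue 1, so a cysteine that a V gene places within the first 4 residues was not counted. The search found 1684 member rearrangements among 126344 productive ones (1.33%), and they carried 2108 of 526888 productive templates (0.400%). Of these, 1672 had 1 internal cysteine and 12 had 2. Each sample held between 23 and 279 members.

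The T cells came from subcutaneous KPC.Luc tumors, a single luciferase-expressing line of mouse pancreatic cancer, in female C57BL/6 mice. Treatment began 6 to 7 days after implantation and lasted 10 days, and every mouse received a peptide at 10 µg every day and an antibody at 200 µg every 3 days. For control mice these were a scrambled peptide with isotype IgG. The ANT008 group received ANT008, a peptide antagonist of the receptors of vasoactive intestinal peptide, with IgG, the anti-PD-1 group received scrambled peptide with the checkpoint antibody, and the combination group received ANT008 with anti-PD-1. There were 4 mice a group, and 1 sample of T cells per mouse was isolated magnetically by CD90.2. The study's published methods describe this isolation for another assay of tumor T cells and do not name it for receptor sequencing. No marker gene was measured, so the labelled cell type could not be set against its markers. Samples held 11317 to 99411 templates, of which 7180 to 72588 were productive and came from 2526 to 13939 unique productive rearrangements. A template is the service's estimate of 1 starting molecule, and the sources used here do not settle whether that molecule was DNA or RNA, so more cells and more RNA per cell cannot be told apart.

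A CDR3 is the part of the β chain where the V, D and J segments are joined, and its middle lies over the peptide held by a major histocompatibility complex molecule. Bases that terminal transferase adds at the joints, and bases trimmed from the segment ends, make most of its variety. Germline D and J segments seldom give a cysteine codon in the frame of the receptor, so an internal cysteine usually arises at a joint. In mice, T cells whose CDR3 carries a cysteine near its apex have been linked to strong self-reactivity in the thymus, with deletion or with diversion into unconventional lineages. Rearrangements that are out of frame make no receptor and ride along in cells that carry another, productive allele, so they show what recombination made before selection on the protein.

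The members that took up the largest share of a single sample are shown because they give the upper end of clone size. Each line is the deposited 87-nucleotide rearrangement, read 5′ to 3′, with the codon of the internal cysteine in capitals.

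ANT008 replicate 2, Trbv17 with Trbj2-1: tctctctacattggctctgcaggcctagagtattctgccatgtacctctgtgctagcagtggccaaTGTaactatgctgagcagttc
control replicate 3, Trbv12-1 with Trbj2-7: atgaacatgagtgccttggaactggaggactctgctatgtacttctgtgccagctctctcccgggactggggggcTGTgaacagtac
control replicate 3, Trbv22 with Trbj1-4: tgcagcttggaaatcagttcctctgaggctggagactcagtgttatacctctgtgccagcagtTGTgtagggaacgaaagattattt
anti-PD-1 replicate 4, Trbv13-3 with Trbj1-5: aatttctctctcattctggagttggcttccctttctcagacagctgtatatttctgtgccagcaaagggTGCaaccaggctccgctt
combination replicate 1, Trbv22 with Trbj1-4: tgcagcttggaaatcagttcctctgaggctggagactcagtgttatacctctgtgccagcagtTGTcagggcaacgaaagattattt
control replicate 4, Trbv22 with Trbj2-5: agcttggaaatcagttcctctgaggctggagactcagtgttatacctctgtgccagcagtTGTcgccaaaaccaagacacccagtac

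The most frequent member, with the CDR3 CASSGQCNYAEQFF, had 46 templates in ANT008 replicate 2, which was 0.140% of the sample's productive templates. It ranked 61 among the rearrangements of that sample. The next was a Trbv12-1 rearrangement with 25 templates and rank 144 in control replicate 3. Each of these 6 rearrangements was found in 1 sample. They included the most frequent member of every group by its mean, which in the anti-PD-1 group had 4 templates and in the combination group 14. In the 3 Trbv22 rearrangements the cysteine codon was wholly V sequence at residue 5, and in the other 3 it held inserted bases followed by a J base. RefSeq (GRCm38.p6) lists Trbv22 as a V segment pseudogene, and whether its in-frame rearrangements make a receptor was not tested. Trbv22 gave 61 of the 1684 members and 135 of the 2108 member templates (6.40%).

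Members were a small and variable share of the unique productive rearrangements. In control replicates 1 to 4 the share was 2.28%, 1.58%, 1.34% and 0.957%. In ANT008 it was 0.881%, 1.36%, 0.838% and 0.823%, and in anti-PD-1 it was 0.863%, 1.24%, 1.10% and 0.911%. The combination samples held 2.11%, 1.04%, 1.31% and 1.52%. All 4 ANT008 samples and all 4 anti-PD-1 samples lay below the control mean, and 3 and 2 of them lay below the lowest control, while the combination samples overlapped the controls over their whole range. The 95% Wilson interval of a single sample, which covers counting error only, was 1.85% to 2.79% for control replicate 1 and 0.608% to 1.36% for anti-PD-1 replicate 4, the smallest sample.

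The group means were 1.54% ± 0.554 (SD, n = 4) in control, 0.976% ± 0.258 in ANT008, 1.03% ± 0.174 in anti-PD-1 and 1.49% ± 0.455 in the combination. No difference from control passed the test. ANT008 minus control was -0.562 percentage points (SE 0.276, exact permutation form of Dunnett's test, p = 0.144), anti-PD-1 minus control was -0.509 (p = 0.198 by the same exact test) and combination minus control was -0.0439 (p = 0.998 by the same exact test). Benjamini-Hochberg values over the 6 comparisons of both shares were 0.595, 0.595 and 0.998. Without control replicate 4 the ANT008 difference was -0.756 with an exact permutation p of 0.0391 and an adjusted p of 0.158, and among rearrangements with at least 2 templates it was -0.463 with an exact permutation p of 0.0375 and an adjusted p of 0.225. Without control replicate 1 the ANT008 difference was -0.317 (exact permutation p = 0.436), the anti-PD-1 difference was -0.264 (exact permutation p = 0.574) and the combination difference was 0.202.

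**Figure D1:**
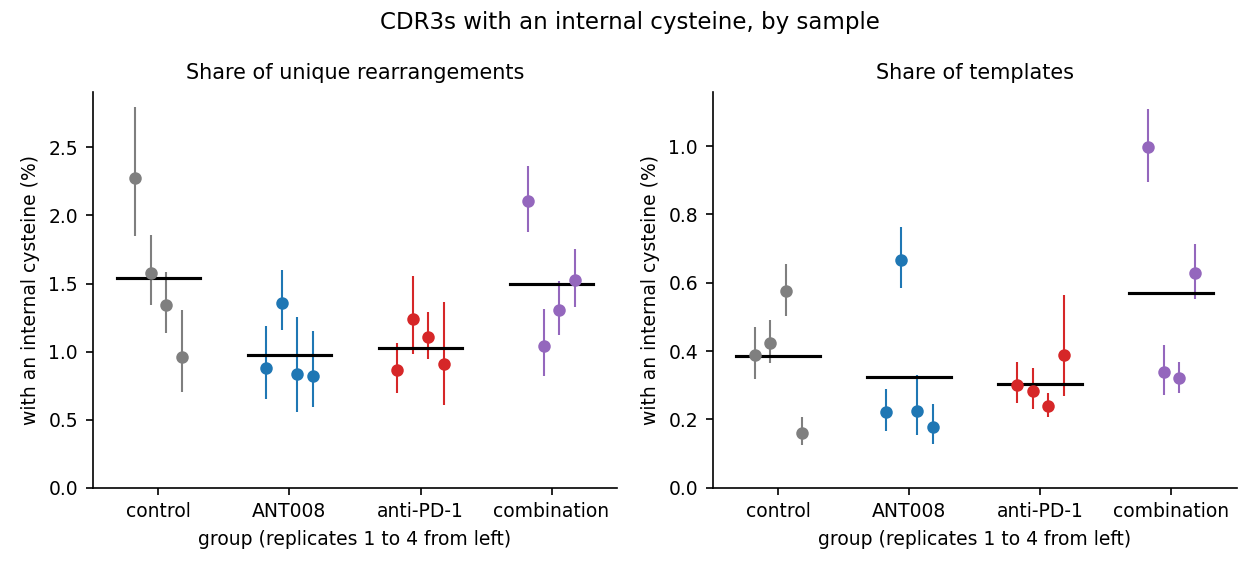
Percent of unique productive rearrangements (left) and of productive templates (right) with an internal cysteine, for replicates 1 to 4 of each group. Points are samples with their 95% Wilson interval and black lines are group means. The groups overlap in both panels, with unique shares from 0.823% to 2.28% and template shares from 0.161% to 0.997%.

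The share of templates was lower than the share of rearrangements in every sample. In control replicates 1 to 4 members held 0.388%, 0.425%, 0.575% and 0.161% of productive templates. The ANT008 samples held 0.220%, 0.668%, 0.225% and 0.178%, and the anti-PD-1 samples held 0.301%, 0.285%, 0.240% and 0.390%. The combination samples held 0.997%, 0.338%, 0.320% and 0.628%. Group means were 0.387% ± 0.171 (SD, n = 4) in control, 0.323% ± 0.231 in ANT008, 0.304% ± 0.0630 in anti-PD-1 and 0.571% ± 0.317 in the combination, and the groups overlapped. The differences from control were -0.0641, -0.0831 and 0.184 percentage points (SE 0.153) with exact permutation p-values of 0.966, 0.927 and 0.527. Single samples moved these differences. Without control replicate 3 the ANT008 difference was -0.00162 and the anti-PD-1 difference -0.0207, without ANT008 replicate 2 the ANT008 difference was -0.179, without control replicate 4 the anti-PD-1 difference was -0.159, and without combination replicate 1 the combination difference was 0.0417.

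The sample-to-sample spread was set against features of the same samples. Of these, only the number of unique productive rearrangements counts members, and it is also the denominator of the unique share. Across the 16 samples the unique share correlated with the mean number of inserted nucleotides of the other productive rearrangements (Pearson r = 0.73, Spearman rho = 0.70, permutation p = 0.00187 and 0.00357, adjusted over 4 relations 0.00624 and 0.0143). Without control replicate 1 and ANT008 replicate 3, the samples farthest from the median in insertions, r was 0.53 with a permutation p of 0.0558, so the relation rested partly on those samples, and within groups r was 0.61. With the cysteine share of out-of-frame codons r was 0.69 and rho 0.58 (permutation p = 0.00312 and 0.0203), and r was 0.39 without control replicate 1 and ANT008 replicate 1, so that relation rested on those samples. Without Trbv22, a V gene that carries a cysteine codon at its end, r was 0.57 and rho 0.40 (permutation p = 0.0235 and 0.123), and r was 0.11 without the same samples. With the log2 number of unique productive rearrangements r was 0.35 and rho 0.47 (permutation p = 0.189 and 0.0692).

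Cysteine codons were compared between productive and out-of-frame rearrangements of the same samples. Codons were read in the V frame from residue 5 up to the start of J, and out-of-frame rearrangements were read where that stretch held no stop codon. The kinds were not matched on their joints. Out-of-frame rearrangements without a cysteine codon averaged 4.08 inserted and 3.12 deleted V nucleotides. Productive rearrangements other than members averaged 3.55 and 2.64. What this contributes to the codon shares was not tested. Cysteine took up 0.145% ± 0.0432 (SD, n = 16) of the codons read in productive rearrangements and 0.270% ± 0.0599 in out-of-frame ones, a ratio of 0.535. These were 684 of 458468 and 664 of 244155 codons. The share was lower in productive rearrangements in 16 of 16 samples, by 0.126 percentage points in the mean (difference -0.126, SE 0.0122, exact sign-flip permutation p = 3.05e-05, the smallest that 16 samples can give, adjusted p = 7.63e-05). The same test called 17 of the 20 amino acids (85%), 8 (40%) lower in productive rearrangements and 9 (45%) higher. The ratio of cysteine was the lowest of the 20, followed by lysine at 0.567 and methionine at 0.827, and the highest were tryptophan at 1.34, phenylalanine at 1.28 and valine at 1.17.

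A V gene carried part of that difference. Trbv22, which RefSeq (GRCm38.p6) lists as a V segment pseudogene, ended in a cysteine codon at residue 5, and all 100 Trbv22 rearrangements with no V deletion read TGT there. It made up 0.625% of out-of-frame and 0.154% of productive rearrangements, and it gave 153 of the 664 out-of-frame cysteine codons (23.0%) and 61 of the 684 productive ones (8.92%). Of its 194 productive rearrangements, 61 were members (31.4%), in 15 samples, and 57 of them had the whole codon from V. Without Trbv22, a choice made after seeing the data, cysteine took up 0.132% ± 0.0395 (SD, n = 16) of productive and 0.209% ± 0.0468 of out-of-frame codons, a ratio of 0.632. That share was lower in 15 of 16 samples, combination replicate 1 being the exception (difference -0.0770, SE 0.0120, exact sign-flip permutation p = 9.16e-05, adjusted p = 0.000183). Lysine then had the lowest ratio and cysteine the next.

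The size of the difference also depended on where codons were read. Between the end of V and the start of J alone, the shares were 0.152% and 0.205% (ratio 0.741, lower in 12 of 16 samples, exact sign-flip permutation p = 0.00330). Lysine at 0.567 and methionine at 0.698 had lower ratios there than cysteine. Read in the J frame, from the end of V through J, the cysteine shares were 0.142% and 0.193% (ratio 0.736, lower in 14 of 16 samples, exact sign-flip permutation p = 0.000458). By residue and without Trbv22, residue 5 held a cysteine in 0.0641% of productive and 0.215% of out-of-frame codons. At residue 6 the shares were 0.181% and 0.246%, at residue 7 they were 0.157% and 0.175%, and at residue 8 the productive share, 0.152%, was the higher against 0.108%. The productive share was again the lower at residue 9 (0.133% against 0.216%), residue 10 (0.150% against 0.271%) and residue 11 (0.199% against 0.659%). The shares at residues 5 to 8 rest on 40 to 215 cysteine codons each, and those at residues 9 to 11 on 5 to 43. None of these shares by residue was tested.

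**Figure D2:**
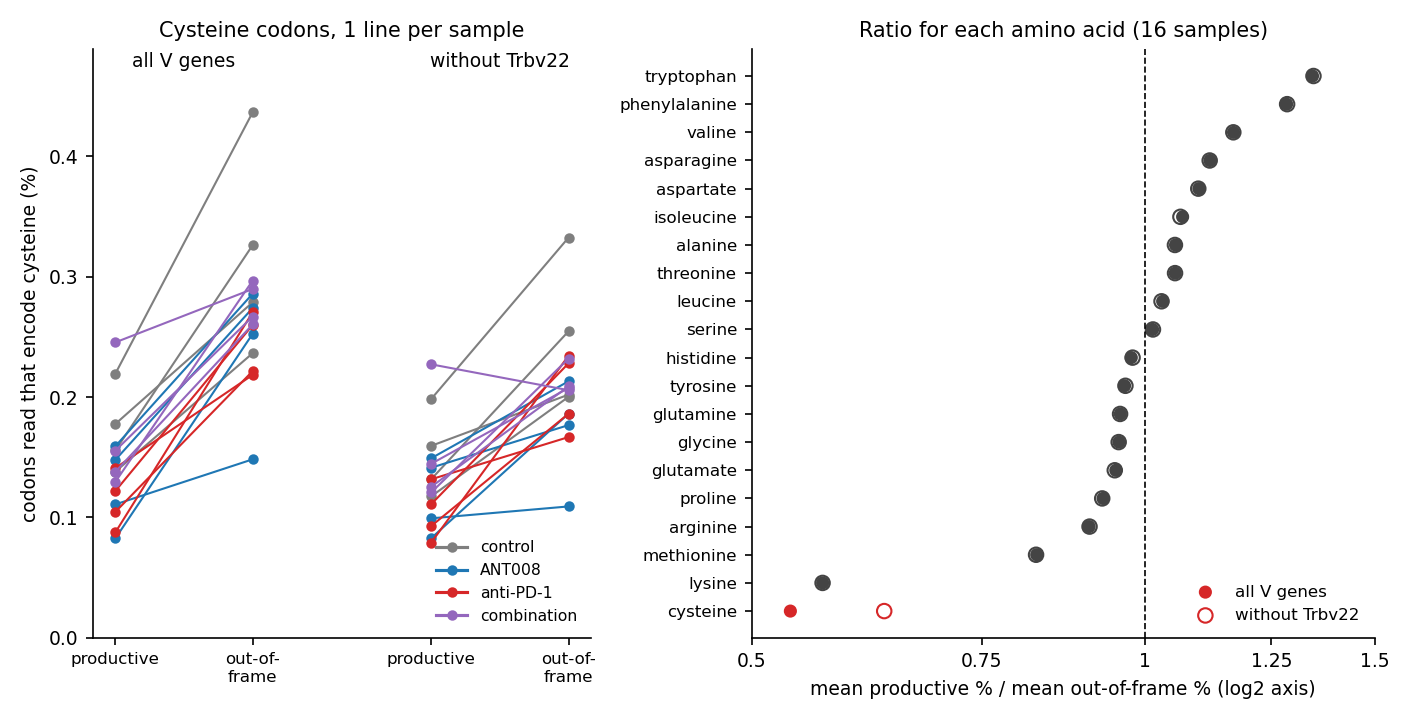
Left, percent of codons read that encode cysteine in productive and out-of-frame rearrangements, 1 line per sample, with all V genes and without Trbv22. Right, ratio of the mean productive to the mean out-of-frame percent for each amino acid, with filled points for all V genes and open points without Trbv22, on a log2 axis. Cysteine lies at 0.535 with all V genes and at 0.632 without Trbv22, the other amino acids moving little.

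Most internal cysteine codons arose at a joint. At least 1 inserted base lay in the codon of 1525 members (90.6%), and 298 codons (17.7%) were wholly inserted. A J base was part of 1003 codons (59.6%), and the 57 codons that were wholly V all came from Trbv22. None was wholly D. The codon was TGT in 935 members (55.5%) and TGC in 749. The cysteine lay within 2 residues of the middle of the CDR3 in 1527 members (90.7%). The rule counts a cysteine only after residue 4, and J encodes the end of the CDR3, which limits where it can lie. No other residue was set against this share, so it does not show an excess in the middle. The cysteine lay 7 residues from the CDR3 end in 853 members (50.7%), 8 from the end in 229 and 6 from the end in 206.

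J segments encode the end of the CDR3 and the strand after it, and J genes differed in how often they carried an internal cysteine. Of 12 J genes with at least 20 productive rearrangements in every sample, 2 (16.7%) stood above the rest of their sample and 7 (58.3%) below. Members made up 2.59% ± 0.975 (SD, n = 16) of Trbj2-3 and 2.72% ± 1.34 of Trbj2-4 rearrangements, against 1.14% of the rest in each case, and both were higher in 16 of 16 samples (differences 1.46 and 1.58, SE 0.168 and 0.264, adjusted p = 0.000183 for each in the exact sign-flip permutation test). The 7 below were Trbj2-5, Trbj1-4, Trbj1-1, Trbj2-7, Trbj1-3, Trbj1-2 and Trbj2-1, with shares between 0.838% and 1.05% and differences between -0.464 and -0.246. Of these, Trbj1-3 had an adjusted p of 0.0424 in the exact sign-flip permutation test, and leaving out 1 sample moved it past 0.05 in 10 of 16 cases. Trbj1-6, Trbj1-5 and Trbj2-2 did not pass.

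In Trbj2-3 and Trbj2-4 most members had their cysteine at the same distance from the CDR3 end. These genes made up 34.8% of members and 16.3% of all productive rearrangements. In 444 of their 586 members (75.8%) the cysteine lay 7 residues from the end, as it did in 71.7% of 60 Trbj1-5 members and 69.0% of 113 Trbj2-2 members. The codon was TGT in 424 of the 444. The last pair of bases came from J after a deletion of 1 J base in 422, and the first base was an inserted one in 401. The same codon read AGT, a serine codon, in 44.5% of productive Trbj2-3 and 38.7% of productive Trbj2-4 rearrangements that reached it. A cysteine codon was there in 2.04% of productive and 2.55% of out-of-frame Trbj2-3 rearrangements (lower in 11 of 16 samples, difference -0.504, SE 0.192, exact sign-flip permutation p = 0.0200, adjusted over both genes 0.0400). In Trbj2-4 the shares were 2.02% and 1.98% (difference 0.0405, SE 0.228, lower in 8 of 16 samples, exact sign-flip permutation p = 0.861). The position was examined after these J genes were seen to stand apart.

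V genes encode the first and second complementarity-determining regions and the start of the CDR3. Of 20 V genes with at least 20 productive rearrangements in every sample, 5 (25%) stood above the rest and 6 (30%) below. Trbv24 had the largest share of members, 2.51% ± 1.43 (SD, n = 16) against 1.24% of the rest (higher in 13 of 16 samples, difference 1.27, SE 0.334, adjusted p = 0.00964 in the exact sign-flip permutation test). Trbv20 followed with 1.99%, Trbv12-2 with 1.74%, Trbv2 with 1.67% and Trbv16 with 1.62%. The call for Trbv12-2 or Trbv16 was lost without 1 of several samples, their adjusted p then rising to at most 0.0579, in 5 of 16 cases for Trbv12-2 and 6 for Trbv16. On the other side Trbv31 had 0.725% ± 0.556 against 1.27% and was lower in 16 of 16 samples (difference -0.550, SE 0.0844, adjusted p = 0.000610 in the exact sign-flip permutation test). Trbv1 had 0.589%, Trbv26 0.675%, Trbv13-3 0.774% and Trbv13-2 0.789%. By number of members Trbv19 led with 135, ahead of Trbv12-1 and Trbv12-2 with 122 each, and neither Trbv19 nor Trbv12-1 stood apart from the rest (adjusted p = 0.768 and 0.146 in the exact sign-flip permutation test). Trbv22 was too rare to be tested.

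**Figure D3:**
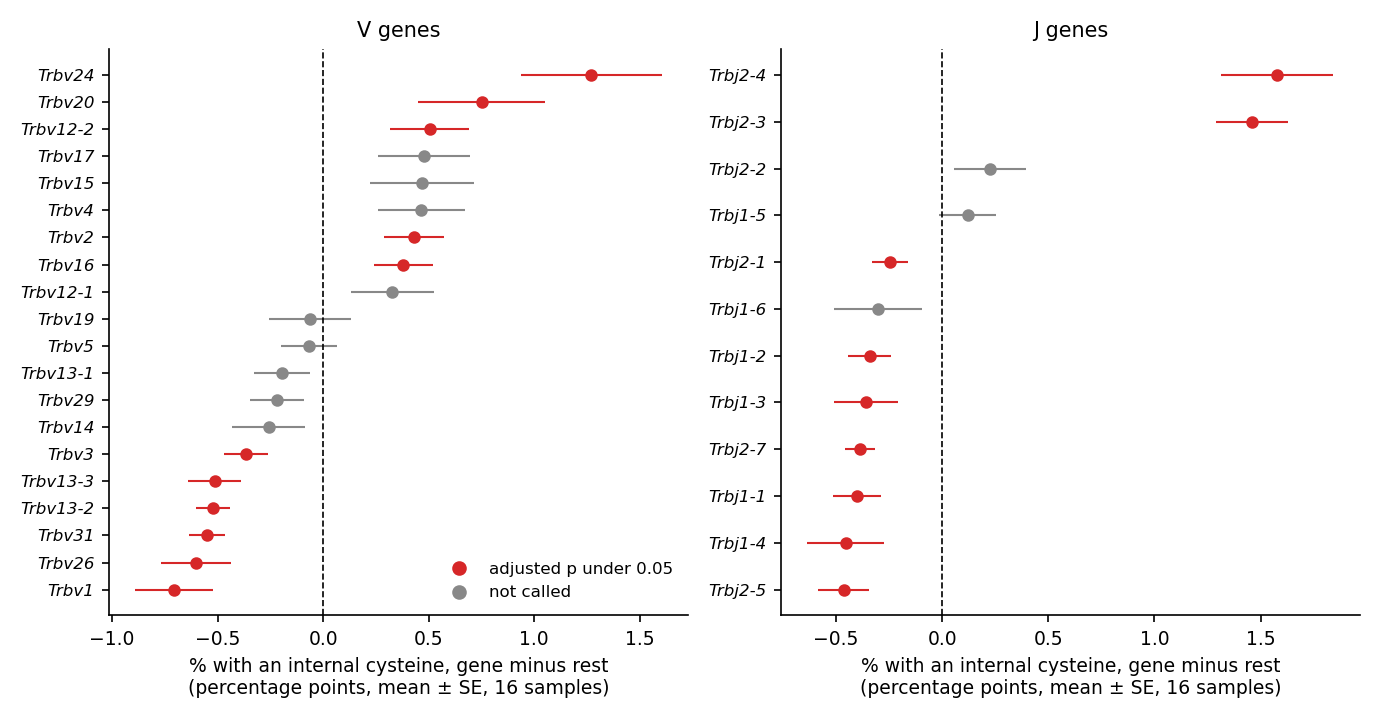
Percent of unique productive rearrangements with an internal cysteine for each V gene (left) and J gene (right), minus the percent in the rest of the same sample. Points are means over 16 samples, bars are standard errors, and red marks an adjusted p under 0.05 in the exact sign-flip permutation test. Trbj2-3 and Trbj2-4 lie at 1.46 and 1.58 percentage points, above each of the 20 V genes tested.

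Members had more inserted nucleotides than the other productive rearrangements of their sample. The mean per sample ranged from 4 to 5.30 in members and averaged 4.49 ± 0.340 (SD, n = 16) against 3.55 ± 0.0729 in the others. It was higher in 16 of 16 samples (difference 0.943, SE 0.0891, exact sign-flip permutation p = 3.05e-05, adjusted p = 6.10e-05). This difference was among 7 of 8 features called (87.5%), and it is linked to the rule because inserted bases made most of these codons. Out-of-frame rearrangements with a cysteine codon wholly before J also had more inserted nucleotides than the other out-of-frame ones, by 2.36 (SE 0.349, higher in 16 of 16 samples). Their CDR3 was longer, by 2.02 nucleotides, and their D deletions more numerous, by 0.787. D deletions, counted only where a D gene was named, were also more numerous in members, by 0.672 nucleotides (SE 0.142, adjusted p = 0.000936 in the exact sign-flip permutation test). The CDR3 was 0.633 nucleotides longer (SE 0.137, adjusted p = 0.000146 in the same exact test), and among rearrangements with at least 2 templates it was shorter, by -0.951. J deletions were fewer, by -0.192 (SE 0.0579, adjusted p = 0.00778 in the same exact test), while the difference was -0.0545 within a CDR3 length (adjusted p = 0.464 in the same exact test) and 0.183 among rearrangements with at least 2 templates. V deletions differed by 0.0928 (adjusted p = 0.193 in the same exact test) and by 0.170 without Trbv22 (adjusted p = 0.0252 in the same exact test).

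Members were smaller clones than the rest. A single template was the whole count of 1465 members (86.995%) and of 75.4% of the other productive rearrangements. By sample, 81.2% to 91.3% of members and 63.9% to 80.3% of the others had 1 template. The mean difference was 13.3 percentage points (86.6% ± 2.98 against 73.4% ± 4.97, SD, n = 16), with members higher in 16 of 16 samples (SE 1.37, adjusted p = 6.10e-05 in the exact sign-flip permutation test). At the other end 9 members (0.534%) had at least 10 templates, against 3.55% of the others. The mean number of templates was lower by 1.79 on the log2 scale (difference -1.79, SE 0.127, lower in 16 of 16 samples, adjusted p = 6.10e-05 in the exact sign-flip permutation test). The template share was 0.168 to 0.491 of the unique share. The mean and the template share are moved by the largest rearrangements, 5.51% to 18.2% of a sample's productive templates, which a small set seldom holds. The differences were 11.96 percentage points and -1.65 within the same number of inserted nucleotides, and 12.7 and -1.68 within a CDR3 length.

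Out-of-frame rearrangements with a cysteine codon wholly before J differed less from the rest in clone size than members did. The sides were not read alike, since only 681 of the 1684 members (40.4%) had their codon wholly before J. Among those 681 a mean of 85.3% per sample had 1 template. Of the 661 out-of-frame rearrangements, a mean of 77.02% per sample had 1 template, against 78.1% of the other out-of-frame rearrangements (difference -1.06, exact sign-flip permutation p = 0.724). The difference between productive and out-of-frame rearrangements was 14.3 percentage points (SE 3.05, higher in 16 of 16 samples, exact sign-flip permutation p = 3.05e-05, adjusted over 4 comparisons 8.14e-05). On the mean number of templates the out-of-frame difference was -0.58 on the log2 scale (exact sign-flip permutation p = 0.0437), and the productive difference was lower still by -1.21 (SE 0.265, lower in 15 of 16 samples, exact sign-flip permutation p = 6.10e-05). Without Trbv22 these 2 contrasts were 13.9 and -1.17. This comparison was chosen after the productive values were known.

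Methionine and tryptophan, read in the same stretch, gave another point of reference. Cysteine was coded there in a mean of 0.522% of unique productive rearrangements, methionine in 1.28% and tryptophan in 18.4%. Where cysteine was coded before J (681 rearrangements), the ratio of template share to unique share averaged 0.313 ± 0.0992 (SD, n = 16) and ranged from 0.173 to 0.494. For methionine (1548 rearrangements) it averaged 0.632 ± 0.173, from 0.356 to 0.893, and for tryptophan (23777 rearrangements), which the Trbd2 segment can encode, it averaged 0.830 ± 0.266, from 0.505 to 1.41. Cysteine was lower than either in 16 of 16 samples (log2 ratio -1.03 against methionine and -1.41 against tryptophan, adjusted p = 4.07e-05 for each in the exact sign-flip permutation test). The sets differ in size, and the largest rearrangement of a sample held 5.51% to 18.2% of its productive templates. A small set seldom holds such a clone, which lowers its ratio, so this test cannot separate the residue from the set size. The share with 1 template was 85.3% for cysteine, 72.4% for methionine and 76.6% for tryptophan.

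**Figure D4:**
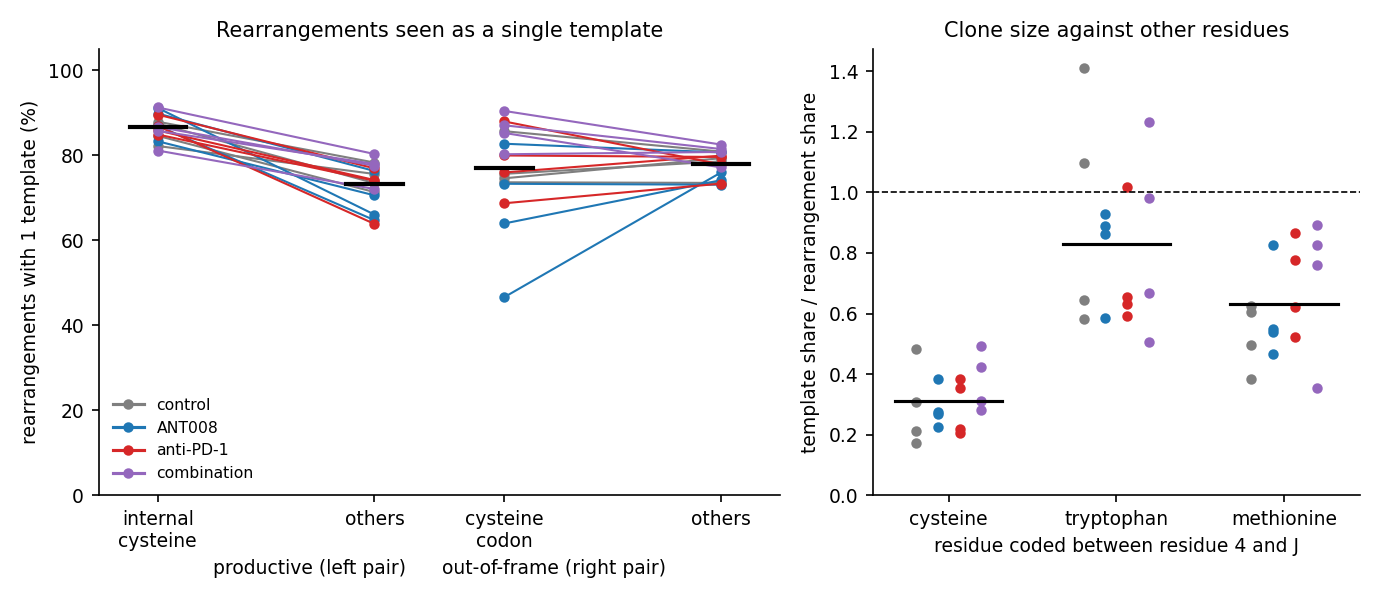
Left, percent of rearrangements with a single template, 1 line per sample, black bars being means. Productive rearrangements are split by an internal cysteine anywhere after residue 4, and out-of-frame ones by a cysteine codon wholly before J. Right, template share divided by rearrangement share for productive rearrangements that encode cysteine, tryptophan or methionine after residue 4 and before J, 1 point per sample, with colors for the groups as in the left panel and black lines for means. The productive pair differs by 13.3 percentage points and the out-of-frame pair by -1.06, and cysteine averages 0.313.

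Members were seldom shared between mice. Of 1582 distinct member CDR3 amino acid sequences, 51 (3.22%) occurred in at least 2 samples, against 12.8% of the 91399 other CDR3 sequences. By sample, 2.38% to 18.2% of the member CDR3s were found in another sample, against 27.6% to 34.6% of the others, and members were lower in 16 of 16 samples. The percent shared was lower for members in each class up to 6 insertions. With no inserted nucleotide 10.7% of 28 member sequences and 47.9% of the others were shared, with 1 to 2 they were 9.17% and 23.3%, with 3 to 4 they were 2.95% and 8.83%, and with 5 to 6 they were 0.482% and 3.26%. With 7 or more, 0 of 270 member sequences were shared, which allows a share of up to 1.11% (3 counts, counting error only), against 0.577% of the others, so no gap could be seen there. Because each shared sequence links samples, these shares are given without a test. At the nucleotide level 3 of 1681 member rearrangements were in more than 1 sample (0.178%), against 2.59% of the others.

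**Figure D5:**
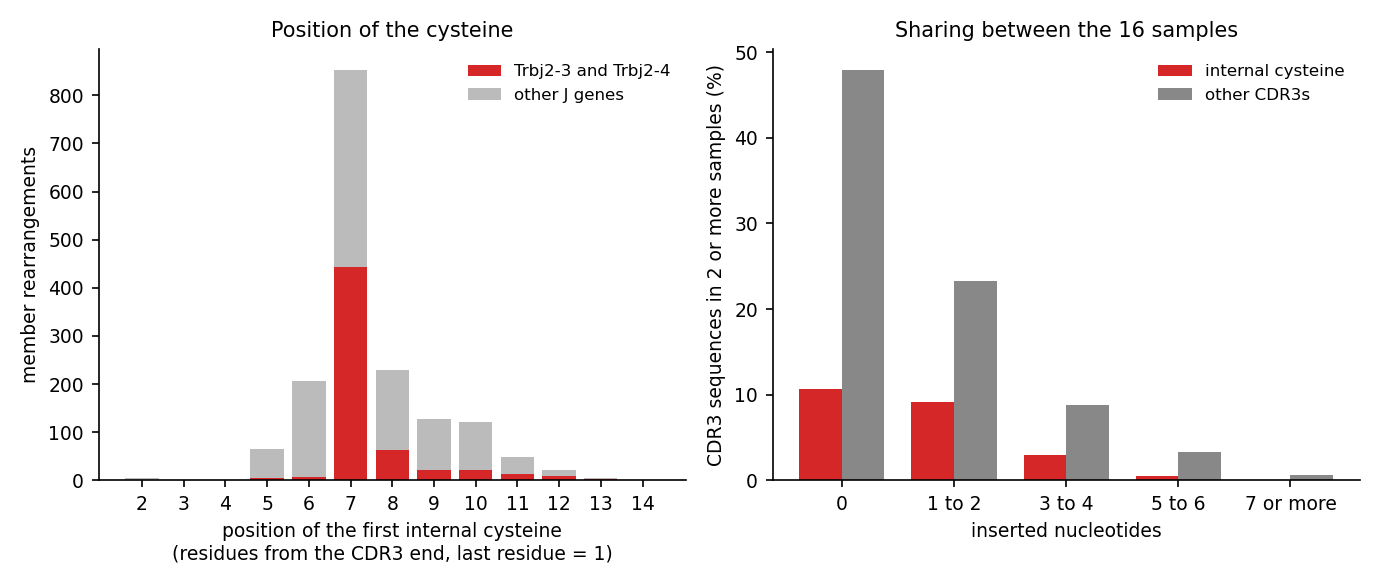
Left, number of members by the position of the first internal cysteine, counted from the last residue of the CDR3 as 1, with Trbj2-3 and Trbj2-4 in red and other J genes in gray. Right, percent of distinct CDR3 sequences that 2 or more samples held, by number of inserted nucleotides. The peak at 7 residues holds 853 members, 444 of them with Trbj2-3 or Trbj2-4, and the percent shared is lower for members than for other CDR3s in each class up to 6 inserted nucleotides.

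The most widely shared member, a CDR3 of 16 residues, occurred in 5 samples and 3 groups, with 1 template in each. It is shown because the same protein sequence was made by 5 different nucleotide rearrangements, all joining Trbv5 to Trbj2-4 with 1 J base deleted.

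control replicate 2: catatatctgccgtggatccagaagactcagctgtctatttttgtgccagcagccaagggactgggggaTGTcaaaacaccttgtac
control replicate 3: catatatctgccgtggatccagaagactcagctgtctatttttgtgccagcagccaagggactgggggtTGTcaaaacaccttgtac
ANT008 replicate 2: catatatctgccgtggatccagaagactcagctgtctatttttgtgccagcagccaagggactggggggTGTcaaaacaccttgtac
ANT008 replicate 3: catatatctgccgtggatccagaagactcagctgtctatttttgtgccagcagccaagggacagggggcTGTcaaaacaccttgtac
anti-PD-1 replicate 3: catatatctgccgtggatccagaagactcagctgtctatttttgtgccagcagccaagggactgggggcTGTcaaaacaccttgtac

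Of the 51 shared member CDR3s, 48 were carried by at least as many nucleotide rearrangements as samples, and 24 used Trbj2-3 or Trbj2-4. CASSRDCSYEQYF, found in 3 samples with 7 templates in all, shows another route, in which the capitals hold 2 D bases and the first base of Trbj2-7 and the V genes differ.

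control replicate 2, Trbv12-2: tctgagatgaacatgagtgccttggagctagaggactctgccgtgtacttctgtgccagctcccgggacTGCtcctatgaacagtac
ANT008 replicate 3, Trbv2: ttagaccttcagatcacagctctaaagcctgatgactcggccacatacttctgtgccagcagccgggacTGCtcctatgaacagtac
combination replicate 1, Trbv12-1: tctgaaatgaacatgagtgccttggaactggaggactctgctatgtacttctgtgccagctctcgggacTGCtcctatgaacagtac

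The other 4 of the 6 most shared were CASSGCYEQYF, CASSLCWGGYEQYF, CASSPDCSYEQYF and a CDR3 of 15 residues, each in 3 samples with 5 templates in all. Copies of abundant clones that differ by 1 misread base were looked for in the same sample. None of the 1684 members, of any template count, had a rearrangement 1 base away and at least 10 times as abundant. Of 93966 other single-template rearrangements, 152 (0.162%) had one. At that low rate few members would have one, so these counts do not separate members from the others.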

How the data were processed

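TCRβ rearrangements of 16 samples were sequenced by Adaptive Biotechnologies. Per the labels, a synthetic repertoire was used with the primers. The authors deposited 1 entry per unique 87-nucleotide rearrangement, with a template count (whole numbers, the service's estimate of input molecules) and per the file headers the productive frequency as a fraction of productive templates. The aligner and genome build are not given in the sources used here, so no coordinates are printed. The 47 V and J names were matched to RefSeq symbols (GRCm38.p6), all 47 with success. Columns of sequencing reads were empty.

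Productive rearrangements are those the service called in frame without a stop codon. Groups came from the labels. Replicate numbers are names only, since the sample names inside the files carry other numbers than the labels in 13 of 16 cases. Treated groups were compared with control by an exact permutation form of Dunnett's test, the study's post-test, over 63063000 assignments of samples. Values within samples were compared by exact two-sided sign-flip permutation tests over 65536 sign assignments, for which 3.05e-05 is the smallest p, with Benjamini-Hochberg adjustment over 20 amino acids, 8 features, 20 V genes or 12 J genes and a threshold of 0.05. Nothing in the sources says more of the replicates than that each is a separate mouse. Samples ranged from 7180 to 72588 productive templates, so a share in the smallest sample is the least precise. Intervals cover counting error only.

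Named were V and J genes past the threshold, up to 10 by size, the 3 V genes with most members, the 6 most frequent and the 6 most shared members, and the 3 highest and lowest amino acids. Members and lists were chosen with earlier results of these data known. Alternatives were leaving out each sample, other definitions of an internal cysteine, other backgrounds, at least 2 templates, equal depth and the replicate number as a block. The tests were checked on simulated data. Of 20 simulated V genes, 94.3% of the 2-fold higher, 87.5% of the 2-fold lower and 6.67% of the unchanged ones were called. V gene calls near the threshold are therefore less sure. The group test called a 4 SD shift in 30 rounds, and 1 of 30 rounds without a shift held a call. Its power for smaller differences was not measured. Python 3.11.15, numpy 2.4.6, pandas 2.3.3, scipy 1.17.1, numba 0.67.0 and matplotlib 3.10.9 were used.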

Additional observations from a re-analysis of the deposited data

Results flagged for a closer look

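In 52 groups of 4 samples examined, 4 held a sample that stood apart from the other 3, and chance gives about 1 in 20. ANT008 replicate 2 had 1.36% of its unique productive rearrangements with an internal cysteine, against 0.823% to 0.881% in the other ANT008 samples. The same sample had 0.668% of its productive templates in members, against 0.178% to 0.225%, and a single rearrangement with 46 templates made up 20.9% of its member templates. Without the most frequent member of each sample its template share was 0.529%. Members of ANT008 replicate 4 had a CDR3 longer than the others by 2.14 nucleotides, against 0.293 to 0.507 in the other ANT008 samples, over 34 members. In anti-PD-1 replicate 4 the share with a single template was 23.1 percentage points higher in members than in the others, against 10.9 to 12.6 in the other anti-PD-1 samples, over 23 members.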

How the results depend on the processing

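Leaving out 1 sample at a time moved the differences from control in the unique share from -0.756 to -0.317 (ANT008), from -0.703 to -0.264 (anti-PD-1) and from -0.248 to 0.202 (combination), the last turning direction without control replicate 1, combination replicate 2 or combination replicate 3 and, at 0.0159, among rearrangements with at least 2 templates. In the template share the ranges were -0.179 to -0.00162, -0.159 to -0.0207 and 0.0417 to 0.267. No adjusted p for these shares passed 0.05 in any alternative. Out-of-frame rearrangements with a cysteine codon before J differed from control in the same direction. Their unique share was lower by 0.298 in ANT008, 0.312 in anti-PD-1 and 0.174 in the combination (differences -0.298, -0.312 and -0.174). The exact permutation form of Dunnett's test gave p = 0.164, 0.134 and 0.590. The cysteine codon difference ranged from -0.131 to -0.119 without 1 sample, and from -0.0835 to -0.0718 when Trbv22 was left out too, and was -0.158 against in-frame rearrangements with a stop codon and -0.209 weighted by templates. The share with a single template ranged from 12.5 to 13.7 percentage points and the log2 mean templates from -1.84 to -1.74.

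Amino acids called lower numbered 6 to 8 without 1 sample, 5 with in-frame stop rearrangements as background, 3 weighted by templates and 5 in the J frame, and those called higher numbered 4 weighted by templates. Phenylalanine (-0.0231), methionine (0.162) and valine (-0.832) turned direction against in-frame stop rearrangements, valine also weighted by templates (-0.920) and methionine in the J frame (0.000206). Among rearrangements with at least 2 templates the CDR3 length difference was -0.951 and the J deletion difference 0.183. Within the same number of insertions the length difference was -0.125 and the V deletion difference -0.165. Within a CDR3 length the J deletion difference was -0.0545, no longer called, and the V deletion difference 0.165, then called, as was its 0.170 without Trbv22. Without 1 sample, 3 to 6 V genes stood above the rest (3 without control replicate 3 or ANT008 replicate 1), 6 below, and 6 to 8 J genes below. Trbv19, not called, ranged from -0.122 to 0.0726. The cause of these changes was not tested.

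Same-numbered samples of different groups gave mixed correlations in V gene shares, from -0.627 to 0.685 and over 0.1 in 9 of 24 pairs. V gene shares need not follow a pairing of the mice, so these values cannot decide whether the replicate numbers pair the samples. With the number as a replicate block, the p of the ANT008, anti-PD-1 and combination differences in unique share was 0.109, 0.164 and 1 in the exact permutation test. The sign-flip test with 4 blocks cannot go below 0.125, which it gave for the cysteine codon difference (-0.126) and for the template minus unique share (-0.863), and with it 0 amino acids were called in either direction, while 17 of 20 were called without the block. The smallest samples hold 23 members each, which limits the precision of their shares.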
